A study of Mus musculus with 18 samples.

Results

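Loopless domains are the subject here: stretches of chromosome that were listed as domains in mouse erythroblasts but that contained no anchor of any listed loop. They were chosen by anchor positions: a row of the domain list on the 19 autosomes was taken when no anchor midpoint of the loop list fell from its start to its end. There were 3964 of them among 12571 autosomal domains, a share of 31.5% (95% Wilson interval 30.7 to 32.4%), and the whole list held 13483 domains. The other 8607 autosomal domains held at least 1 anchor and are called anchor-holding domains. A Wilson interval covers only the counting of domains, which overlap and are nested and so are not independent.

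The study made 18 Micro-C libraries from an LDB1-AID subline of G1E-ER4, a mouse erythroblast line that carries the erythroid factor GATA1 as a hormone-responsive fusion. Of these, 9 were untreated and 9 had received auxin for 4 h. The LDB1-AID genotype, in which a degron is joined to the enhancer-bridging protein LDB1, was common to both groups, so the untreated cells carried it too. The loop list (20926 loops, 20535 of them on autosomes) and the domain list were each made once for the series and hold neither a value per sample nor one per treatment, so no effect of auxin could be measured and read depth is unknown here.

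Micro-C cuts chromatin between nucleosomes with micrococcal nuclease and ligates DNA ends that lie close together. A domain is a part of a chromosome with more contacts within it than across its edges. A loop is a local peak of contact between a pair of sites, its anchors. Cohesin is known to extrude chromatin until it is halted at CTCF sites, which can leave loops at the corners of domains, and enhancers and promoters form further loops, in erythroid cells often with LDB1. Domains can also arise where active and inactive chromatin segregate from each other, which needs no contact between a pair of fixed points.

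Because the loop list chose the members and the lists have no replicates, no test was made. Differences are set beside the spread over the 19 autosomes, which are not replicates of a condition. Every number on loops near the members comes from the list that chose them and is a description. Coordinates are those of the files, counted from 1, in mm9, the build named in the submitters' processing notes. No gene or sequence is named because no annotation or genome of that build was used here.

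The number of anchors per domain, the value that chose the members, ranged widely. Of the autosomal domains, 1072 (8.53%) held exactly 1 anchor, 874 (6.95%) held 2 and 5394 (42.9%) held 5 or more. The median over anchor-holding domains was 7 anchors and the highest was 107.

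Some members lay close to the limit of the rule. A loopless domain at chromosome 2, positions 48395001 to 48741666, had an anchor midpoint 0.834 kb past its end. Loopless domains at chromosome 6, positions 7115001 to 7225000, and at chromosome 7, positions 49205001 to 49635000, each had an anchor midpoint 2.0 kb from an edge. Just outside the rule, domains at chromosome 1, positions 5155001 to 5885000, 7640001 to 7765000 and 44805001 to 45355000, each held a single anchor whose midpoint fell exactly on an edge. In all, 63 loopless domains had an anchor within 5 kb of an edge, and 302 of the 1072 domains with 1 anchor had it within 20 kb of an edge. Widening every domain by 20 kb at both ends lowered the share of loopless domains to 28.5%, and narrowing by as much raised it to 34.5%. When a loop counted only with both its anchors in the domain, 48.5% of domains were without one.

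With domains of all levels pooled, loopless domains were smaller than anchor-holding ones, but by less than the range within either kind. Their median size was 370 kb (95% CI from order statistics 360 to 380 kb), with quartiles of 250 and 640 kb, against 435 kb (430 to 440 kb), with quartiles of 270 and 750 kb. Both kinds ran from 100 to 2000 kb. Over the autosomes the medians averaged 375 kb ± 32.1 (SD, n = 19) for loopless and 435 kb ± 27.4 (SD, n = 19) for anchor-holding domains, and the loopless median was the lower on 17 of 19. A part of this difference is built in, since every domain inside a loopless domain is loopless too and is smaller than it. Among domains inside no other the order was the reverse, with medians of 660 kb for loopless and 640 kb for anchor-holding ones.

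The share without an anchor fell steeply only over the smallest sizes. It was 56.8% (52.6 to 60.9%) for 539 domains of 100 to 150 kb and 38.6% (35.1 to 42.2%) for 705 domains of 150 to 200 kb. From 200 to 1000 kb it was nearly level, between 29.2 and 33.7% in each of 7 size classes. At 1000 to 1500 kb it was 23.6% (21.3 to 26.1%) and at 1500 to 2000 kb 22.5% (18.9 to 26.4%). A domain of 1 Mb or more offers far more room for an anchor than one of 250 kb, yet 392 of 1684 such domains had none. Among domains that lay inside no other, whose state is not fixed by an outer domain, the share above 150 kb did not follow size in 1 direction. It was 15.6% (10.4 to 22.6%) at 150 to 200 kb, 27.4% (23.9 to 31.2%) at 800 to 1000 kb, 20.5% (18.0 to 23.3%) at 1000 to 1500 kb and 22.7% (19.1 to 26.8%) at 1500 to 2000 kb.

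**Figure D1:**
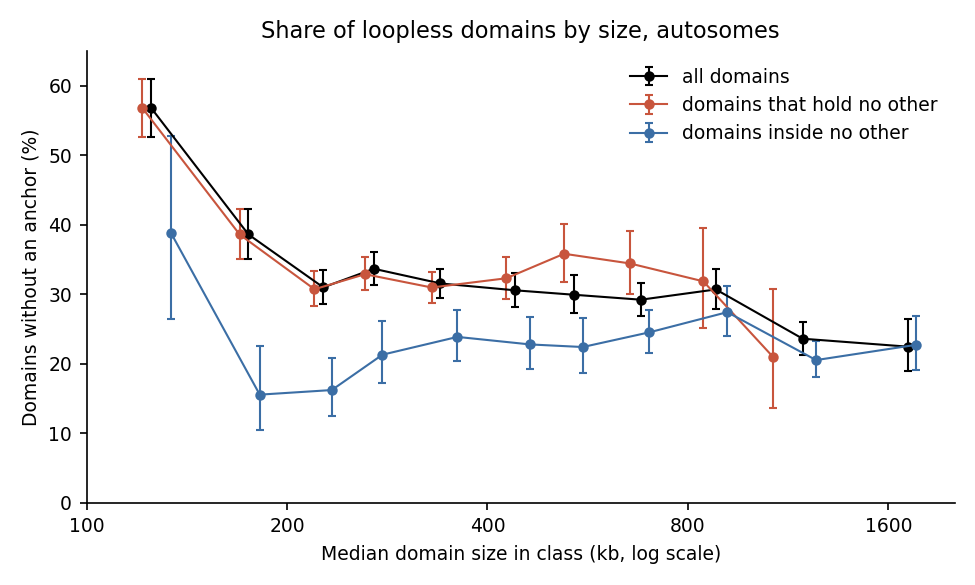
Share of autosomal domains that contained no anchor (vertical axis, %) in each size class, plotted at the median size of the class (horizontal axis, kb, log scale), for all domains, for domains that held no other and for domains inside no other; bars are 95% Wilson intervals. The share for all domains drops from 56.8% to 31.0% between the smallest class and 200 to 250 kb and stays near 30% up to 1000 kb.

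The 5 largest loopless domains covered nearly 2 Mb each and were subdivided. The largest, 2000 kb at chromosome 3, positions 23575001 to 25575000, held 10 smaller domains, and its nearest anchors lay 1482.5 kb before its start and 110 kb past its end. A domain of 1990 kb at chromosome 12, positions 107335001 to 109325000, held 11 domains and had anchors 26 and 90 kb away, with 15 anchors within 250 kb of its edges. Its surroundings were thus rich in anchors while its interior had none. A domain of 1990 kb at chromosome 14, positions 91375001 to 93365000, held 8 domains, and its nearest anchors were 1992.5 and 4000 kb away. A domain of 1980 kb at chromosome 16, positions 68605001 to 70585000, held 5 domains and was 3070 and 4707.5 kb from the nearest anchors. A domain of 1970 kb at chromosome 15, positions 27585001 to 29555000, held 8 domains and had an anchor 12.5 kb before its start but none for 1692 kb past its end. None of the 5 lay inside another domain. They held from 5 to 11 domains, and their nearest anchors ranged from 12.5 to 3070 kb away. With anchors at these distances a loop over any of them would have to be longer than 1995 kb, the longest in the list.

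Nesting set the members apart from anchor-holding domains of the same size. For this comparison anchor-holding domains were weighted by size class of 50 kb to the sizes of the loopless ones. Of the loopless domains 28.0% lay inside no other domain, against 39.6% of anchor-holding domains at the same sizes. The difference was -11.6 percentage points, its SD over 19 autosomes was 4.51 percentage points, and it was negative on 19 of 19. Loopless domains had on average 1.32 outer domains, against 0.960. Inner subdivision differed less: 68.0% of loopless domains held no other domain, against 66.7% at the same sizes, a difference of 1.35 percentage points with an SD over autosomes of 2.89.

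A part of the difference in outer domains is built in, since every domain inside a loopless domain is loopless too. The share without an anchor was 22.7% of 4894 domains inside no other, 30.3% of 4184 inside 1 other and 41.5% of 2342 inside 2. It was 53.0% of 881 inside 3, 54.5% of 209 inside 4 and 54.1% of 61 inside 5 or more. These shares were not weighted by size, and the median size fell from 650 kb inside no other to 260 kb inside 3. The difference also depended on exact edges. When an edge was allowed to pass the outer domain by up to 20 kb, 20.2% of loopless and 26.7% of anchor-holding domains at the same sizes lay inside no other, a difference of -6.53 percentage points that was negative on 19 of 19 autosomes.

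By their surroundings the members fell into 3 classes. There were 1111 (28.0%) outermost ones, with a median size of 660 kb and a median distance to the nearest anchor of 322.5 kb. Another 1496 (37.7%) lay only inside loopless domains, and their median distance to an anchor was 860 kb. The remaining 1357 (34.2%) lay inside at least 1 anchor-holding domain, with a median distance of 182.5 kb. Within the last class 870 had only anchor-holding domains around them, and their median distance was 97.5 kb. The order of these distances is partly built in. A domain inside a loopless one is at least as far from an anchor as that outer domain is. A domain inside an anchor-holding one has an anchor within that outer domain. Seen from the anchor-holding domains that held others, 2392 of 3446 (69.4%) had anchors in every innermost domain, 719 (20.9%) mixed loopless and anchor-holding innermost domains, and in 335 (9.72%) every innermost domain was loopless, the anchors lying outside all of them.

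Loopless domains followed each other along the chromosome. Innermost domains, those that hold no other, were put in order of their starts, and 2695 of 7856 (34.3%) were loopless. The domain after a loopless one was itself loopless in 1995 of 2690 cases (74.2%), and the domain after an anchor-holding one in 693 of 5147 cases (13.5%). Weighted to the same sizes the latter was 13.0%. The first share averaged 72.7% ± 6.18 (SD, n = 19 autosomes), from 54.5 to 80.7%, and the second 13.8% ± 3.43 (SD, n = 19 autosomes), from 6.76 to 18.5%, so their ranges did not overlap. Of the neighbouring innermost pairs 39.5% overlapped and could share an anchor. Over pairs that did not overlap the shares were 72.2 and 15.4%.

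The dependence wore off over distance. At 2 steps along the chromosome 65.5% of domains were loopless after a loopless one and 18.1% after an anchor-holding one. At 5 steps the shares were 53.0 and 24.8%, at 10 steps 43.8 and 29.6%, and at 40 steps 37.8 and 33.0%. Outermost domains, which are larger, showed the same order: 68.2% were loopless after a loopless one and 9.39% after an anchor-holding one.

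**Figure D2:**
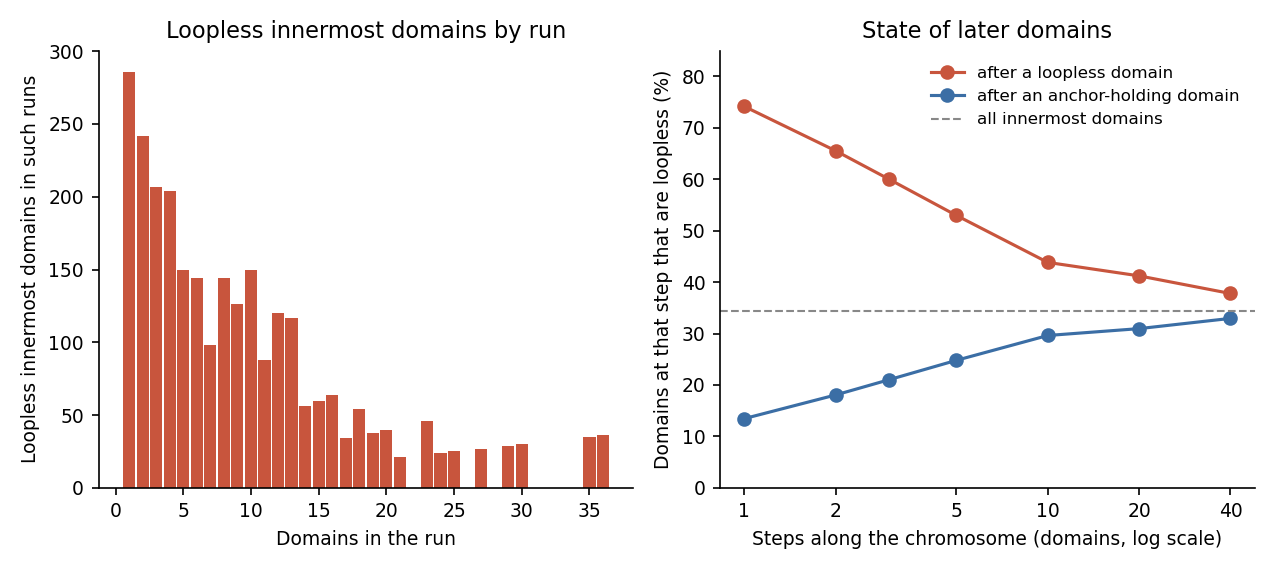
Left, number of loopless innermost domains (vertical axis) that lay in runs of each length (horizontal axis, domains per run), without error bars because each bar is a count; right, share of innermost domains that were loopless (vertical axis, %) at 1 to 40 steps (horizontal axis, log scale) after a loopless or an anchor-holding domain, with the share over all as a dashed line. The curves start at 74.2 and 13.5% and approach 34.3%.

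Consecutive loopless innermost domains formed 700 runs. Single domains made up 286 runs and 10.6% of the loopless innermost domains. Runs of 5 or more numbered 173 and held 1756 domains (65.2%), and 12 runs on 10 chromosomes had 20 or more. The 73 runs of 10 or more occurred on all 19 autosomes. Runs of 5 or more spanned 493 Mb, while single loopless domains spanned 96.3 Mb. A gap between neighbouring domains did not end a run, so these spans can include sequence outside any loopless domain. When a gap over 100 kb ended a run, 58.8% of the loopless innermost domains lay in runs of 5 or more.

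The 5 longest runs were on chromosomes 15, 16, 6, 1 and 2. On chromosome 15, positions 17465001 to 25855000, 36 innermost domains followed each other over 8390 kb. With the domains that enclose them, 59 domains of up to 5 layers lay whole in that run. On chromosome 16, positions 65591667 to 75165000, the run had 35 innermost domains over 9573 kb, the longest of all runs in bp. On chromosome 6, positions 74565001 to 81840000, it had 30 over 7275 kb, on chromosome 1, positions 110495001 to 118115000, 29 over 7620 kb, and on chromosome 2, positions 95355001 to 101265000, 27 over 5910 kb. No anchor was listed in any of the 5, and all were longer than the longest listed loop.

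Inside these runs the sizes of innermost domains varied around those elsewhere, and were smaller on chromosome 6. The median innermost size was 280 kb on chromosome 15, 330 kb on chromosome 16, 185 kb on chromosome 6, 250 kb on chromosome 1 and 300 kb on chromosome 2, and the median over all innermost domains was 290 kb. The largest domain whole within them was 1980 kb, on chromosome 16. The runs ended differently. Within 1 Mb past the end there were 18 distinct anchors on chromosome 16, 17 on chromosome 6 and 20 on chromosome 2. In the same distance there was 1 anchor on chromosome 15 and 2 on chromosome 1, where loops stayed sparse beyond the run. Before the start there were 12 anchors within 1 Mb on chromosome 16 and 2 on each of the 4 other chromosomes.

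**Figure D3:**
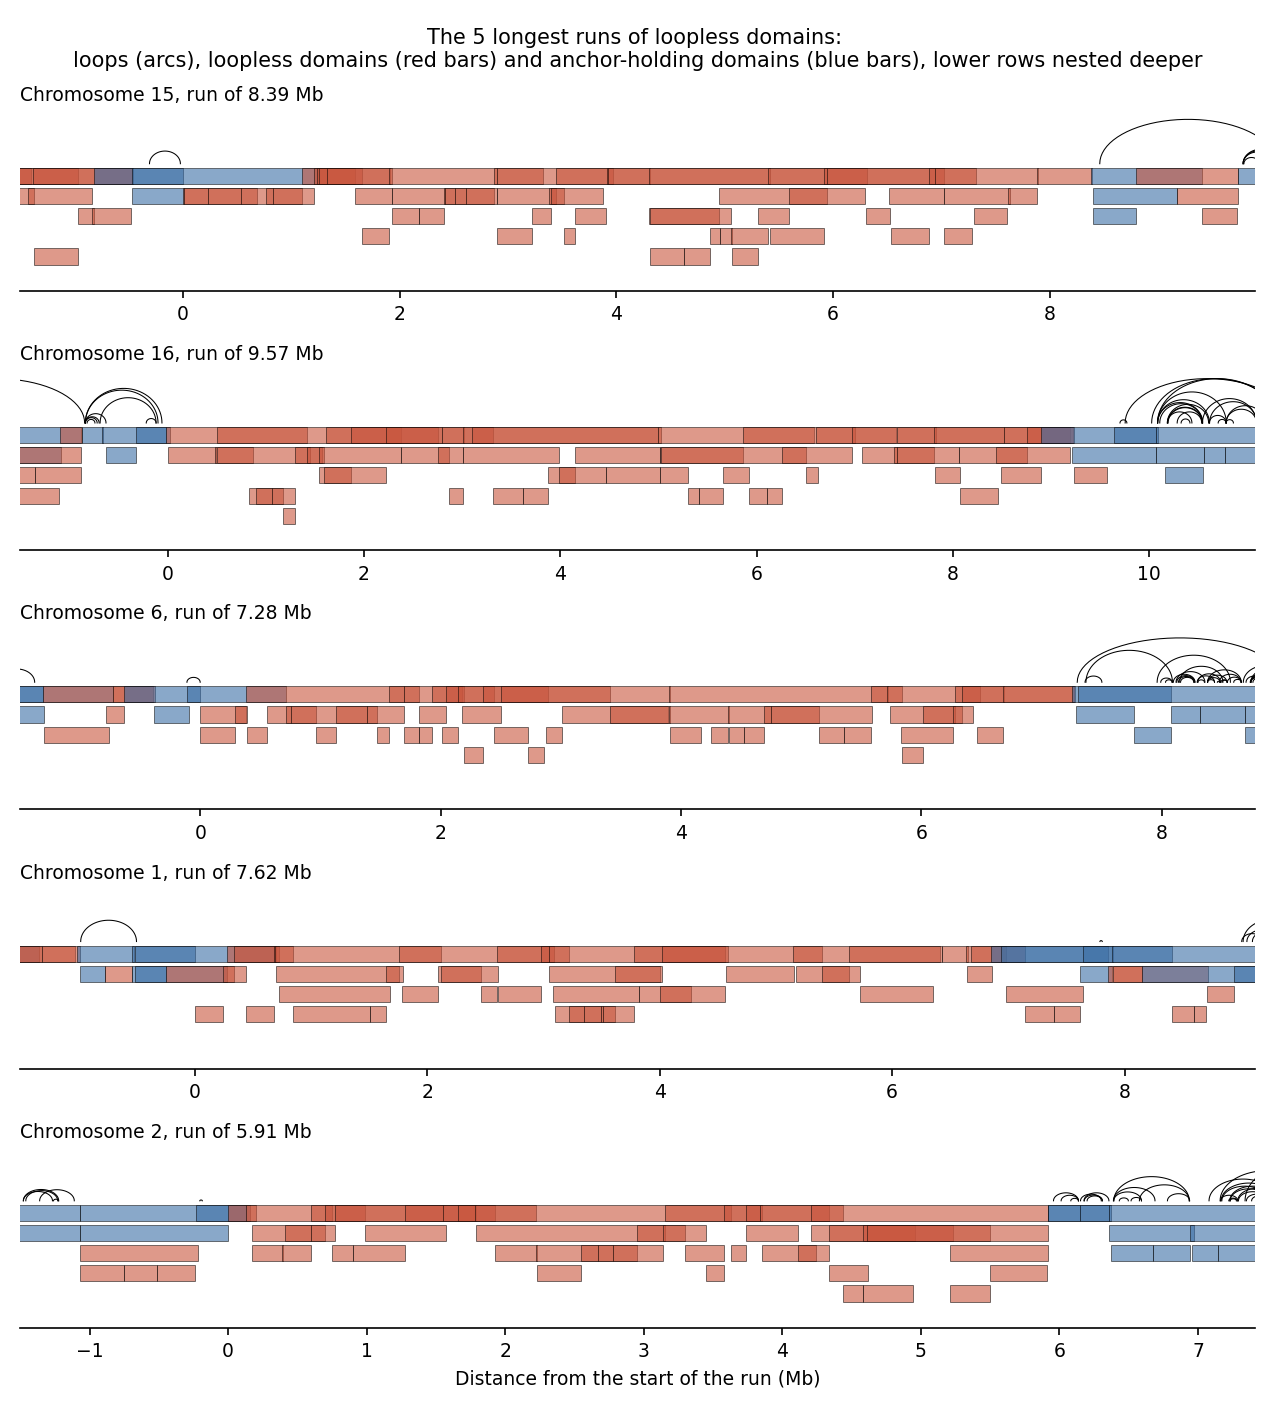
The 5 longest runs, each with 1.5 Mb on both sides; the horizontal axis is the distance from the start of the run in Mb, arcs are loops (height grows with span up to 1 Mb and is then constant), red bars are loopless and blue bars anchor-holding domains, lower rows are domains with more outer domains, and darker shades are overlaps. The red bars fill up to 5 layers with no arc, and arcs resume densely on the right side on chromosomes 16, 6 and 2.

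Taking domains of all levels, the members merged into 751 continuous stretches that covered 825 Mb, 34.2% of the 2410 Mb spanned by the lists on autosomes. The median stretch was 617 kb. There were 117 stretches of 2 Mb or more, with 407 Mb in total, and 13 of 5 Mb or more on 12 chromosomes. The longest was 9590 kb at chromosome 16, positions 65575001 to 75165000, with 57 loopless domains. The next were 8390 kb on chromosome 15, with the coordinates of the run there and 59 domains, 7910 kb at chromosome 14, positions 89425001 to 97335000, with 40, 7890 kb at chromosome 1, positions 110245001 to 118135000, with 47, and 7275 kb on chromosome 6, again with the coordinates of the run, with 52.

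Counted over whole intervals, the frequency of domains between distant anchors differed with the length of the interval. There were 154 intervals of 2 Mb or more between neighbouring anchors on autosomes, together 526 Mb (21.8% of the span). Such an interval cannot be bridged in this list, whose longest loop spans 1995 kb. They contained 2510 loopless domains whole, 63.3% of all. By midpoint they had 5.43 domains per Mb, against 5.16 elsewhere, and 3.18 innermost domains per Mb, against 3.28. In the 756 intervals of 500 kb or more, which held 94.9% of the loopless domains whole, the order was the reverse for domains of all levels, at 5.14 per Mb against 5.28 elsewhere, and innermost domains were scarcer, at 2.95 per Mb against 3.52. In intervals of 2 Mb or more, innermost domains had a median of 280 kb inside and 293 kb elsewhere. Outermost domains were larger inside, with a median of 820 kb against 610 kb. Domains covered 94.7% of these intervals and 98.8% of the rest. Of the 154 intervals, 8 were covered by domains over less than 50% of their length. These 8 added up to 26.3 Mb, contained 5 domains whole and also count among the intervals of 500 kb or more. They lower the densities and the coverage inside, and the comparisons were not repeated without them, so the orders given here may depend on them.

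The distance from a member to the nearest anchor outside it varied widely. The median was 430 kb, from 67.5 kb at the lower quartile to 962.5 kb at the upper and 5552.5 kb at most, against a median of 18 kb in anchor-holding domains. There were 1807 loopless domains (45.6%) more than 500 kb from any anchor, and 942 (23.8%) more than 1 Mb away. At the near end, 375 (9.46%) had an anchor within 20 kb, compared with 4760 (55.3%) of the anchor-holding domains. Within 250 kb of either edge 2422 loopless domains (61.1%) had no anchor at all, as did 655 (7.61%) of the anchor-holding ones. Loopless domains thus ranged from neighbours of loop-rich chromatin to positions megabases from the nearest loop.

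**Figure D4:**
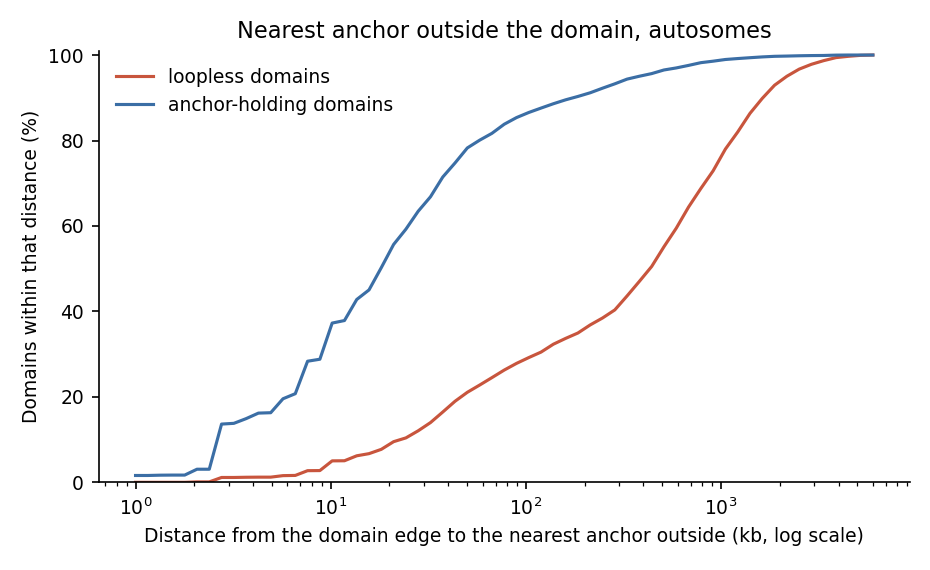
Cumulative share of domains (vertical axis, %) whose nearest anchor outside the domain lay within a given distance of an edge (horizontal axis, kb, log scale), for loopless and anchor-holding domains on autosomes. The loopless curve reaches its median at 430 kb and the anchor-holding curve at 18 kb.

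A domain without anchors can still lie beneath a loop. Loops passed over 663 loopless domains (16.7%), with anchors on both sides, and the shortest such loop had a median span of 1320 kb. The share in anchor-holding domains at the same sizes was 33.2%, a difference of -16.5 percentage points with an SD over autosomes of 6.48, negative on 19 of 19. Passing loops were listed over 42.9% of loopless domains with an anchor within 20 kb and over 6.13% of those 500 to 1000 kb from an anchor. Beyond 1 Mb the share was 0. A passing loop has to span the domain and the distance to an anchor on each side, and no listed loop exceeds 1995 kb. A fall of the share with distance is thus built in, and the same limit enters the difference from anchor-holding domains and the shares by surroundings. Among members inside only anchor-holding domains the share was 46.4%, and among those inside only loopless domains 2.21%.

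The loops nearest to the members differed in grid and span from the rest. Of 3586 loops with an anchor within 250 kb of a loopless domain, 13.1% lay on the 2 kb coordinate grid, the finest in the list, and 41.2% on the 10 kb grid. For the 16949 other autosomal loops the shares were 22.4 and 30.3%. The median spans were 250 and 165 kb. Since either anchor could place a loop near a member, a long loop, with anchors far apart, had more chance to be counted there. The difference in span may thus be partly built in, and how far this enters the grid shares was not tested. What part the resolution at which loops were called has in the absence of anchors was not tested. Leaving out the loops of the 10 kb grid raised the share of loopless domains to 40.2%, and leaving out those of the 2 kb grid gave 32.6%. The 10 kb grid held more loops than the 2 kb grid, both near the members and elsewhere, so these removals were unlike in size.

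Domain ends off the 5 kb grid were scarcer in loopless domains. Most domain ends lie on multiples of 5 kb. In loopless domains 211 of 7928 ends (2.66%) were off the grid, against 13.6% in anchor-holding domains at the same sizes. The difference was -10.9 percentage points with an SD over autosomes of 3.07 and was negative on 19 of 19. Within the members the share was higher near anchors, from 6.40% of ends where an anchor lay within 20 kb to 5.29% at 20 to 100 kb, 1.34% at 100 to 500 kb, 1.56% at 500 to 1000 kb and 1.43% beyond 1 Mb.

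Whether their boundaries were used by several domains depended on how closely coordinates had to match. With identical coordinates, 72.4% of the ends of loopless domains were also an end of another domain, against 59.7% at the same sizes in anchor-holding domains, a difference of 12.6 percentage points that was positive on 19 of 19 autosomes. With ends within 10 kb counted as shared, the values were 89.0 and 92.4%, and the difference of -3.32 percentage points was negative on 19 of 19. Among domains with both ends on the 5 kb grid the shares by identical coordinates were 73.9 and 65.1%.

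Chromosomes differed in their share of loopless domains by a factor of 2.53. The lowest was 16.8% (14.2 to 19.8%) on chromosome 11, with 117 of 696 domains, and the highest 42.5% (39.1 to 45.9%) on chromosome 4, with 338 of 796. The middle value, 32.5%, was that of chromosome 18, and the mean was 31.2% ± 7.77 (SD, n = 19). Next to the extremes stood chromosome 19, at 17.2%, and chromosomes 16 and 10, at 41.8 and 40.4%. Their intervals overlapped that of chromosome 11 or that of chromosome 4, as did those of some chromosomes nearer the middle. The order was nearly the same with domain size taken into account. Against the number given by the autosome-wide share in each size class, chromosome 11 had 0.528 times as many loopless domains, chromosome 4 had 1.32 times and chromosome 16 had 1.34 times.

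The share followed loop density only in part. Over 19 autosomes Pearson's r between loops per Mb and the share was -0.727 and Spearman's rho -0.640, and r was -0.475 without chromosomes 11 and 19, the most extreme in density. The density enters the rule itself, so this is a description without a test. Chromosome 4 had 8.40 loops per Mb and 42.5% of its domains without an anchor, whereas chromosome 13, with fewer loops, at 7.56 per Mb, had 23.3%. The 2 chromosomes also differed in runs. On chromosome 4, 77.1% of the loopless innermost domains lay in runs of 5 or more, and anchor-free intervals of 2 Mb or more added up to 47.7 Mb. On chromosome 13 these values were 59.4% and 16.6 Mb. Both values can be larger where more domains are loopless, so they are not independent of the shares by which these chromosomes were picked. Chromosome 14, the sparsest autosome at 6.09 loops per Mb, had 35.2%, and chromosome 17, at 10.5 loops per Mb, had 33.3%.

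**Figure D5:**
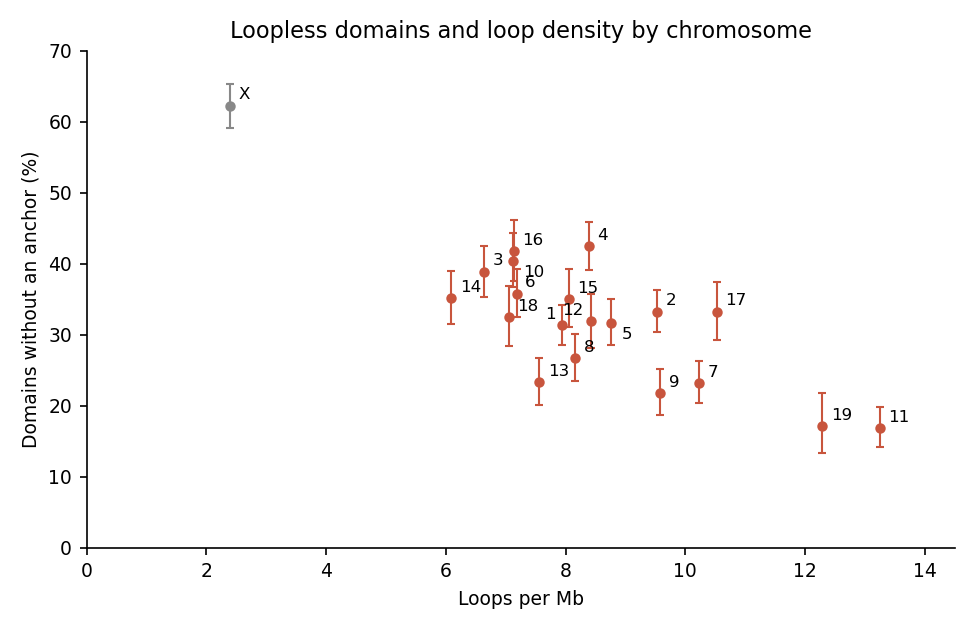
Share of domains without an anchor (vertical axis, %, with 95% Wilson intervals) against loops per Mb (horizontal axis) for the 19 autosomes and, in grey, the X chromosome, each labelled. Chromosomes 11 and 19 sit at 16.8 and 17.2%, chromosome 4 at 42.5% lies above chromosomes of similar density, and chromosome 13 at 23.3% lies below them.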

How the data were processed

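Both lists are as the authors deposited them: genome coordinates in bp, with no header, score or value per sample. The build is mm9, per the submitters' processing notes. The aligner and the callers are not given in the sources used here. The domain list's name says that domains were filtered and merged. Columns with values of unassigned samples numbered 0.

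Starts were read as counted from 0. An anchor counted when its midpoint lay between a domain's start and end. A domain was inside another when both ends were. The 10 kb grid held loops with both anchors starting at multiples of 10 kb, the 5 kb grid those with an anchor starting 2500 or 7500 bp past one, and the 2 kb grid the rest. Comparisons at the same sizes used 50 kb classes with at least 5 domains of each kind (200 kb and 3 within an autosome). The code was tested on simulated lists. Python 3.11.15, numpy 2.4.6, pandas 2.3.3, scipy 1.17.1 and matplotlib 3.10.9 were used.

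Regions named are the 5 largest loopless domains, the 5 longest runs and stretches, the extreme autosomes and up to 3 domains on each side of the rule; chromosomes 10, 13, 14, 17 and 19 were added after their values were seen. The members and the comparisons were chosen with earlier results of these data known. Genes, promoters and sequences were not analysed here.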

Additional observations from a re-analysis of the deposited data

How the results depend on the processing

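For 13 results, alternative settings gave 70 further values in all. The 2 restricted to ends on the 5 kb grid were chosen after the data were examined. Of the 70 values, 63 moved by less than the SD over autosomes. The share of loopless domains (31.5%) moved to 48.5% when both anchors of a loop had to lie in the domain, 40.2% without loops on the 10 kb grid and 22.7% among domains inside no other. It ran from 30.8 to 32.4% when each autosome was left out in turn, and the median size stayed at 370 kb. The median size moved to 280 kb among domains that hold no other and 660 kb among those inside no other, as the nesting itself brings about. The difference in lying inside no other domain (-11.6 percentage points) moved to -6.53 when edges could pass by 20 kb. The difference in shared ends (12.6 percentage points) reversed to -3.32 when ends within 10 kb counted as shared.

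No paired analysis was possible because neither list gives values for single samples, so the effect of auxin and its replicate block were not run. Depth is unknown here, and a contact too weak to be called is not in the loop list.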

Other observations

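The X chromosome, which the rule left out, had a larger share of loopless domains than any autosome. Of its 912 domains 568 held no anchor, 62.3% (95% Wilson interval 59.1 to 65.4%), at 2.39 loops per Mb. Its loopless domains had a median size of 350 kb and its anchor-holding ones 427 kb, the same order as on the autosomes. Its longest run had 74 innermost domains over 20163 kb, positions 110051667 to 130215000, compared with 36 domains over 8390 kb for the autosomal run with the most domains, on chromosome 15, and 9573 kb for the longest in bp, on chromosome 16. With a single X the difference was not tested.

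Not every anchor-free interval held domains. Of the 154 of 2 Mb or more, 144 were covered by domains over at least 99% of their length, and 8 on 6 chromosomes were covered over less than 50%. These 8 added up to 26.3 Mb and contained 5 domains whole. The longest, singled out after its values were seen, was 7214 kb on chromosome 7, positions 39329001 to 46542500, where domains covered 0.499%. Both lists were empty over nearly all of it, unlike the runs of loopless domains.

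Along the chromosome, the share of loopless domains was highest in the middle. With the span cut into 5 equal parts from low to high coordinates it was 29.3, 33.8, 37.3, 32.0 and 24.8%. The spread between autosomes was wider than these differences, with SDs of 14.4 to 19.2 percentage points, and in part 4 single autosomes ran from 4.84 to 83.8%.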
